A study of Rattus norvegicus with 12 samples.

Results

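Nuclear RNA-rich hepatocyte barcodes were 193 of the 16576 hepatocyte barcodes kept from 4 total liver homogenate (TLH) libraries of healthy rats, out of 226270 TLH barcodes and 265188 barcodes in all cell and nuclei libraries. A TLH barcode was kept as a hepatocyte with at least 2000 UMIs (unique molecular identifiers, each standing for 1 captured RNA molecule), at most 40% of them from mitochondrially encoded (Mt-) genes, at least 1% from Alb (albumin), and at most 2 from 9 genes of other liver cell types (Lyve1, Fcgr2b, Bmp2, Cd5l, Clec4f, Vsig4, Ecm1, Col3a1 and Nkg7). A kept barcode was called rich with at least 5 UMIs, summed, of 2 unannotated transcripts, AABR07048482.1 (ENSRNOG00000033415) and AABR07026377.1 (ENSRNOG00000061180), here called the pair. It was compared with the 13152 kept barcodes at 0 UMIs of the pair, and the 3231 barcodes at 1 to 4 UMIs formed a class between them. The barcodes were thus chosen by their measured UMIs of the pair, of Alb, of Mt- genes and of the 9 genes, so the values of the pair, Alb, the 9 genes and the Mt- share are given as description. The name "nuclear RNA-rich" comes from the pair being high in isolated nuclei, and whether the barcodes resemble nuclei in other genes was the question asked.

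The TLH libraries came from livers of male rats of 2 inbred strains, Dark Agouti (DA-1 and DA-2) and Lewis (LEW-1 and LEW-2), labelled healthy, with 2 rats per strain and an age of 8 to 10 weeks in the series' design text (the study's methods give an older age for rats of both strains), and were made with version 2 of the 10x 3′ chemistry. As references for nuclei and for whole cells served 4 single-nucleus libraries (snRNA-seq, 2 DA and 2 LEW, nuclei extracted from liver of other rats) and 2 immune-enriched cell libraries (1 DA and 1 LEW, made with additional washing and red cell depletion), all from healthy male rats and made with version 3 chemistry. The study's methods state that parenchymal cells were spun out of the immune-enriched suspensions, so hepatocyte barcodes there are those left after that step. Passing the same filter were 2948 nuclei and 1024 immune-enriched barcodes (96 DA and 928 LEW). Chemistry and preparation therefore differ together between TLH and either reference, and their parts cannot be told apart.

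In most cells messenger RNA is exported to the cytoplasm soon after splicing, while some transcripts stay in the nucleus: unspliced precursors, incompletely processed messages and many long non-coding RNAs. Isolated nuclei are therefore known to carry proportionally more of these and fewer RNAs of ribosomal proteins, secreted proteins and mitochondria. Hepatocytes are large, often polyploid or binucleate, easily damaged during dissociation, and their cytoplasm is dominated by messages for plasma proteins and by mitochondrial RNA.

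The TLH libraries held 61441846 to 92484173 UMIs each, the nuclei libraries 8039397 to 15186970, and the immune-enriched libraries 48255870 and 60005133. Rich barcodes were spread unevenly over the rats. DA-1 held 0 of 1710 kept barcodes (exact 95% binomial interval 0 to 0.215%), and the limit of 3 counts that a count of 0 allows is 0.175%. DA-2 held 129 of 7634 (1.69%, exact interval 1.41 to 2.00). LEW-1 held 3 of 4338 (0.0692%, 0.0143 to 0.202), and LEW-2 held 61 of 2894 (2.11%, 1.62 to 2.70). Intervals and limits cover counting error only. All comparisons of rich with zero barcodes therefore rest on 3 rats, and in LEW-1 on 3 barcodes with 10317 UMIs, where 1 UMI amounts to 96.9 CPM (counts scaled to a common library total). The larger numbers in DA-2 and LEW-2 did not follow strain: each strain had 1 rat with many rich barcodes and 1 rat with few or none.

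The depth of rich and zero barcodes was similar in DA-2 and LEW-2, and the 3 rich barcodes of LEW-1 were deeper. Their median was 2570 UMIs in DA-2, 3437 in LEW-1 and 2228 in LEW-2, against 2532, 2456 and 2272 in the zero class, and the largest held 5882 UMIs. At 2000 UMIs per barcode the median number of genes detected was 801, 800 and 770 in the rich class and 762, 813 and 797 in the zero class of DA-2, LEW-1 and LEW-2. The difference was positive in DA-2 and negative in both LEW rats (mean difference −0.333 genes ± 34.8 (SD, n = 3), exact sign permutation test, two-sided p = 1, where 0.25 is the smallest p that 3 rats allow).

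By construction the pair was high in the rich class, with 22.7 UMIs per 10000 UMIs in DA-2, 14.5 in LEW-1 and 26.5 in LEW-2. All kept TLH hepatocyte barcodes together had 0.576 per 10000 in DA-1, 2.19 in DA-2, 0.420 in LEW-1 and 1.58 in LEW-2, and TLH barcodes of other cell types (Alb under 1% and at least 10 UMIs of the 9 genes) had 0.0397 to 0.148. Hepatocyte nuclei had 34.4 and 7.78 per 10000 in the DA libraries and 3.25 and 13.5 in the LEW libraries. The limit of 5 UMIs itself sets the level of the rich class, so nothing is read from its height beside the other barcodes. Immune-enriched hepatocytes reached 5 UMIs of the pair in 25% and 9.38% of barcodes at a median depth of 38953 and 35251 UMIs, but their level was 0.841 and 0.561 per 10000.

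AABR07026377.1 was more often detected in TLH barcodes with AABR07048482.1 than in those without it, though most barcodes with AABR07048482.1 had no UMI of AABR07026377.1. AABR07026377.1 was found in 40.9% of DA-2 barcodes with AABR07048482.1 and in 18.3% of those without it, at median depths of 2464 and 2527 UMIs. In LEW-2 these shares were 15.7% and 2.00%, in LEW-1 12.6% and 4.38%, and in DA-1 17.5% and 5.52%. The balance between both genes differed by rat: rich barcodes of DA-2 had 17.4 UMIs of AABR07048482.1 and 5.29 of AABR07026377.1 per 10000, those of LEW-2 had 25.1 and 1.47, and 74.4% against 29.5% of rich barcodes held both. Just inside the limit, at 5 UMIs of the pair, lay 66 barcodes of DA-2, 3 of LEW-1 and 26 of LEW-2. Just outside it, at 4 UMIs, lay 105, 7 and 41 barcodes of the same rats and 1 of DA-1.

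A further unannotated transcript, AC134224.3 (ENSRNOG00000062158), which the choice did not use, led the rich barcodes. It made up 12.6% of all UMIs of rich barcodes in DA-2, 11.2% in LEW-1 and 15.9% in LEW-2. In zero barcodes of the same rats it made up 2.05%, 2.73% and 1.25%, and in zero barcodes of DA-1 1.02%. The sums of the classes did not overlap, and the share in rich barcodes was 6.16, 4.11 and 12.8 times that in zero barcodes. It was the most abundant transcript of all 3 rich sums and ranked 9th, 2nd and 11th in the zero sums, where Alb or LOC680406 led. The fitted log2 fold change was 2.40 ± 0.409 (SE, n = 3 rats; edgeR quasi-likelihood test, adjusted p = 1.9e-06), and 3.05 ± 0.303 without LEW-1, whose rich sum of 3 barcodes had a normalization factor of 1.78 against 0.804 to 0.931 for the other sums.

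Single barcodes differed in their medians but overlapped. The median share of AC134224.3 per rich barcode was 12.3% in DA-2 (quartiles 9.57 and 14.7), 12.0% in LEW-1 and 16.6% in LEW-2, and per zero barcode 1.14%, 0.218% and 0.149%. A share of at least 5% was found in 191 of 193 rich barcodes (99.0%) and in 1527 of 13152 zero barcodes (11.6%). These zero barcodes pool all rats, DA-1 included, and the share differed by rat (for example 5.18% in DA-1 and 12.8% in DA-2). Single rich barcodes ranged from 2.90% in DA-2 to 27.4%, and zero barcodes from 0 up to 33.8% in DA-2, 30.2% in LEW-1 and 40.7% in LEW-2. Zero barcodes with a high share were thus more numerous than rich ones, although the pair was not detected in them at these depths.

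**Figure D1:**
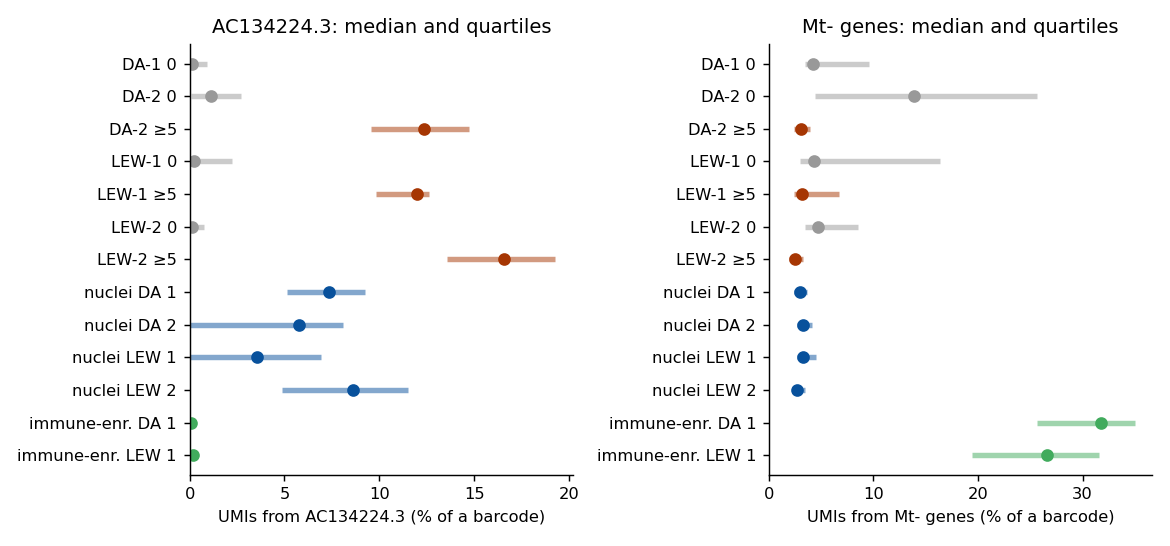
Share of each barcode's UMIs from AC134224.3 (left, percent) and from Mt- genes (right, percent), shown as the median (point) and quartiles (bar) over barcodes, for TLH hepatocyte barcodes with 0 and at least 5 UMIs of the pair by rat, and for hepatocyte nuclei and immune-enriched hepatocytes by library. Rich barcodes had AC134224.3 medians of 12.0 to 16.6%, above the nuclei medians, and their Mt- medians of 2.52 to 3.13% lay beside those of nuclei.

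From 0 to 4 UMIs of the pair, below the limit, the share of AC134224.3 was higher at each further UMI in all 4 rats. In DA-1, which had no rich barcode, it was 1.02% at 0 UMIs of the pair, 3.09% at 1, 8.08% at 2, 8.40% at 3 and 8.74% in the single barcode at 4. In DA-2 it went from 2.05% at 0 through 4.89%, 7.42%, 9.54% and 10.98% to 12.4% at 5 to 9 UMIs. In LEW-1 it was 2.73%, 7.62%, 13.1%, 15.5% and 20.2% at 0 to 4 UMIs and 11.2% in the 3 barcodes at 5. In LEW-2 the values at 0 to 4 UMIs were 1.25%, 5.92%, 12.8%, 14.7% and 16.8%, and 15.8% at 5 to 9. The limit of 5 UMIs therefore did not mark a step in AC134224.3: at 4 UMIs it stood at 8.74 to 20.2% across the 4 rats, and at 5 UMIs at 11.2 to 15.6% across the 3 rats with such barcodes.

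**Figure D2:**
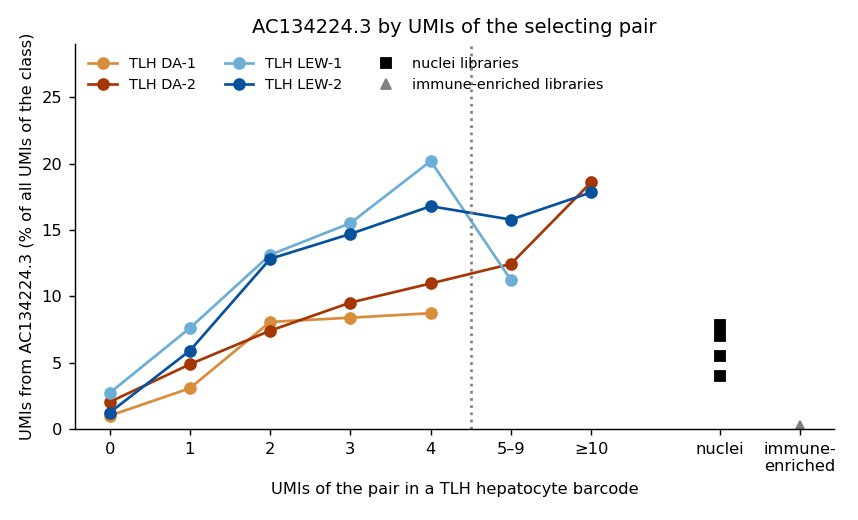
Share of UMIs from AC134224.3 (percent of all UMIs of the barcodes in a class, vertical axis) against the number of UMIs of the pair per TLH hepatocyte barcode (horizontal axis), 1 line per rat, with the 4 nuclei and both immune-enriched libraries as single points at the right. The dotted line marks the limit of 5 UMIs, and the share was already 8.74 to 20.2% at 4 UMIs.

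Nuclei also had AC134224.3 as a leading transcript. It made up 7.004% and 5.49% of hepatocyte nuclei UMIs in the DA libraries and 3.98% and 7.82% in the LEW libraries, ranking first in 3 libraries and second, after Alb, in LEW nuclei library 1. In immune-enriched hepatocytes it made up 0.127% and 0.255% and ranked 71st and 40th. The share in rich TLH barcodes was thus above that of all 4 nuclei libraries, a difference that was not tested because chemistry and preparation differ with it. TLH barcodes of other cell types carried 1.82%, 2.52%, 2.24% and 1.96% in DA-1, DA-2, LEW-1 and LEW-2, below rich barcodes. Their medians per barcode of 1.19%, 2.47%, 1.92% and 1.62% were above those of zero hepatocyte barcodes.

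Mt- genes gave 3.80% of UMIs in rich barcodes of DA-2, 5.07% in LEW-1 and 2.76% in LEW-2, against 14.8%, 9.49% and 8.12% in zero barcodes. The share was lower in rich barcodes of 3 of 3 rats (mean difference −6.93 percentage points ± 3.56 SD). Since the choice of barcodes used this share, with a limit of 40% for both classes, it is a description with no test. The study's methods give a stricter limit of 20% for DA-2. Among DA-2 barcodes at or under 20%, Mt- genes gave 3.65% of UMIs in 128 rich and 7.30% in 3072 zero barcodes. Hepatocyte nuclei had 2.94 to 4.05% and immune-enriched hepatocytes 31.2% and 27.8%.

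Rich barcodes were concentrated among barcodes with the least mitochondrial RNA in both rats that had many. In DA-2 they were 12.1% of barcodes under 2.5% Mt-, 3.04% between 2.5 and 5%, 0.496% between 5 and 10%, 0.397% between 10 and 20%, and 0.0344% above. In LEW-2 the shares were 10.2%, 2.00% and 0.549%, with 0 of 395 and 0 of 258 barcodes in the upper bins. In LEW-1 and DA-1 barcodes under 2.5% Mt- numbered 713 and 73 and held 1 and 0 rich barcodes. A low mitochondrial share alone was therefore found in many barcodes that were not rich. Under 2.5% Mt-, AC134224.3 made up 6.49%, 12.1%, 9.33% and 8.69% of UMIs in DA-1, DA-2, LEW-1 and LEW-2. Between 2.5 and 5% it made up 1.11%, 5.55%, 2.57% and 2.66%. The pair stood at 2.26, 8.21, 0.976 and 5.76 UMIs per 10000 in the lowest bin of the same rats. Few rich barcodes in DA-1 and LEW-1 thus went with a low level of the pair, not with a low share of AC134224.3.

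**Figure D3:**
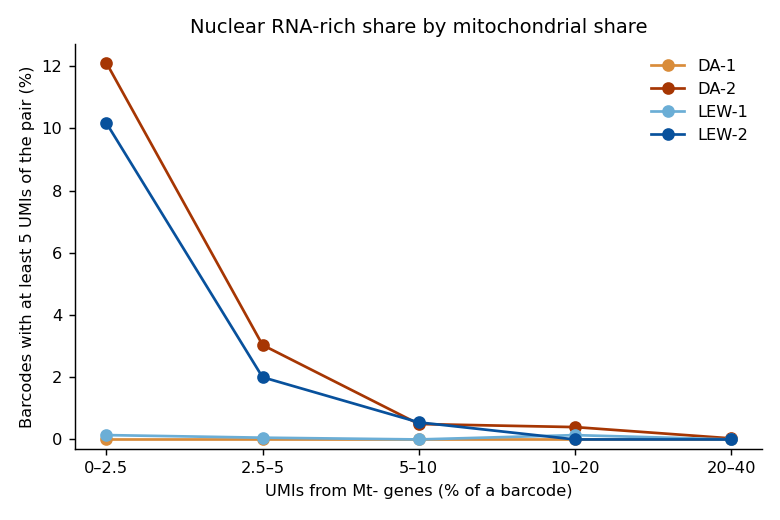
Percentage of kept TLH hepatocyte barcodes with at least 5 UMIs of the pair (vertical axis) in bins of the percentage of UMIs from Mt- genes (horizontal axis), 1 line per rat. DA-2 and LEW-2 fell from 12.1% and 10.2% in the lowest bin to 0.0344% and 0 in the highest, while DA-1 and LEW-1 stayed at or near 0.

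Over all genes, 119 of 7720 tested differed between rich and zero barcodes at an adjusted p under 0.05 (1.54%; edgeR quasi-likelihood test on UMI sums per rat with rat as a block): 87 were higher (1.13%) and 32 lower (0.415%) in rich barcodes. The pair, Alb and the 9 genes were not tested, while the 13 Mt- genes, whose summed share the choice had limited, stayed in the fit and made up 12 of the 32 lower genes. A further 2 were the transcripts AY172581.24 and AY172581.9, named after a record of the mitochondrial genome, which leaves 18 lower genes of other origin. A fit without the Mt- genes called 83 genes higher and 15 lower. All genes were counted in the same barcodes that the pair chose. Of the 87 higher genes, 38 had 0 UMIs in the LEW-1 rich sum: the values of 37 rest on DA-2 and LEW-2, and that of the clock gene Per3, named after its values were seen, on 15 UMIs in LEW-2 alone. Without LEW-1 the fit called 195 of 8003 genes (2.44%; 120 or 1.5% higher, 75 or 0.937% lower), 109 of them shared with the 119, while without DA-2 it called 24 and without LEW-2 17. DESeq2 called 31 genes, all among the 119, and edgeR without the rat block 50. The excess of higher calls was not found with zero barcodes matched for depth (67 higher, 84 lower, of 2773 genes tested instead of 7720). It was also not found with rich barcodes at 10 or more UMIs (2 higher, 111 lower, of 7345 tested, from 4 and 5 barcodes). Of the 87 higher genes, 17 passed the low-count limit of 3.22 CPM in fewer than 3 zero sums and so entered the test through rich sums, in which they had to be high.

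The leading higher genes are described by their roles, with no theme drawn from them. Pnn, a splicing-associated protein of nuclear speckles, stood at 65.8 CPM in rich and 15.0 in zero barcodes of DA-2, 388 and 27.6 in LEW-1, and 100.2 and 13.5 in LEW-2 (log2 fold change 2.36 ± 0.357 SE, edgeR adjusted p = 2.9e-08). Prpf4b, a kinase of pre-mRNA splicing, stood at 249 and 60.0 CPM in DA-2, 582 and 131 in LEW-1, and 541 and 84.7 in LEW-2 (2.11 ± 0.295). For both genes the lowest rich value was above the highest zero value.

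Pnisr, a serine and arginine-rich nuclear protein, rose by 1.99 ± 0.337 on the log2 scale, from 42.0 to 155 CPM in DA-2, 46.7 to 96.9 in LEW-1 and 26.8 to 180 in LEW-2. Snrnp48, a protein of the minor spliceosome, rose by 1.83 ± 0.394, and Khdc4, a splicing regulator, by 1.66 ± 0.395. Cped1, of little known function, stood at 42.9 and 46.8 CPM in rich and 12.5 and 11.4 in zero barcodes of DA-2 and LEW-2 (1.81 ± 0.406). The LEW-1 rich value of Snrnp48, Khdc4 and Cped1, 194 CPM each, is 2 UMIs, that of Pnn is 4 UMIs, and these 4 genes reach the mean of 50 CPM asked of leading genes only with the LEW-1 sums. Without LEW-1 the log2 fold changes were 1.77, 1.62, 1.75 and 2.32 in this order. At 10 or more UMIs of the pair, in 4 barcodes of DA-2 and 5 of LEW-2, the fitted value of Cped1 was −8.86. It did not pass the test (edgeR adjusted p = 0.85).

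Of the remaining leading genes, Akr1c1 codes for an aldo-keto reductase of a family with similar copies, between which the counting may split reads. It stood at 535 CPM in rich and 139 in zero barcodes of DA-2, 388 and 93.1 in LEW-1, and 408 and 56.7 in LEW-2 (2.11 ± 0.303, adjusted p = 4.0e-09, edgeR). Hepatocyte nuclei had 765 to 2649 CPM of Akr1c1 and immune-enriched hepatocytes 57.7 and 27.9. AC134224.1, which shares the clone part of its name with AC134224.3, stood at 386, 388 and 388 CPM in rich barcodes of DA-2, LEW-1 and LEW-2 against 87.6, 94.1 and 53.3 in zero barcodes (2.21 ± 0.300). In nuclei AC134224.1 stood at 3525 to 7779 CPM, above the rich TLH barcodes, while AC134224.3 was above the nuclei in rich TLH barcodes. Whether these 2 transcripts overlap and share reads was not examined.

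**Figure D4:**
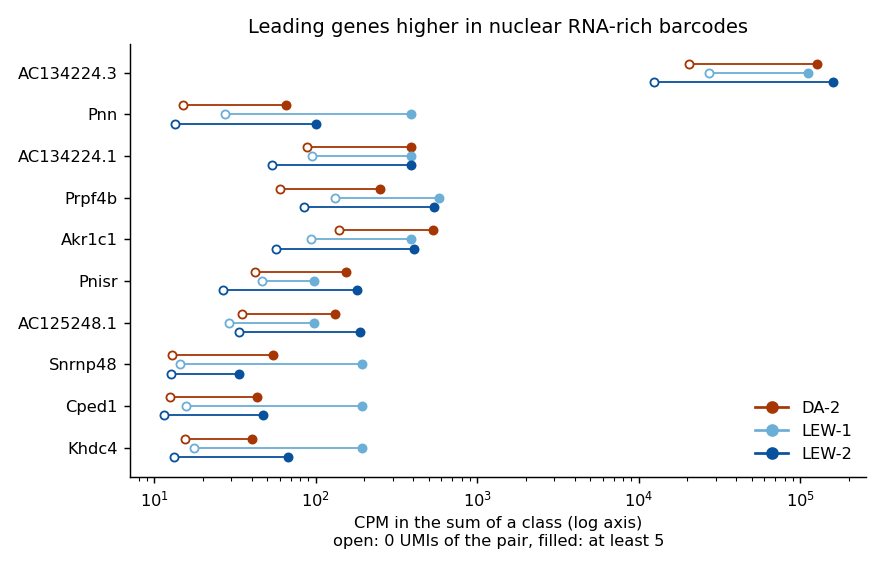
Level of the 10 leading higher genes (CPM in the summed UMIs of a class, log axis) in zero (open circles) and rich (filled circles) barcodes of DA-2, LEW-1 and LEW-2. The filled circle lies to the right of the open one for every gene in every rat, and AC134224.3 lies at 112339 to 159472 CPM in rich barcodes, above the other 9 genes.

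For the gene lists, counts stand beside 1.13% of all genes tested called higher and 0.415% called lower. Splicing and nuclear RNA-binding factors had 3 of 24 tested members higher and 0 lower, with a median log2 fold change of 0.66 beside −0.12 over all genes tested (DESeq2 called 1). The called members were Pnisr, Clk4, a kinase that phosphorylates splicing factors, and Ddx17, an RNA helicase. Clk4 stood at 28.6 against 8.58 CPM in DA-2 and 60.1 against 3.92 in LEW-2, with 0 UMIs in the LEW-1 rich sum (2.22 ± 0.447). Hepatocyte transcription factors had 3 of 22 higher and 0 lower (median 0.43; DESeq2 called 0): Zbtb20, a repressor of fetal liver genes, Nr1i3, the xenobiotic receptor CAR, and Onecut2. Zbtb20 stood at 180, 96.9 and 214 CPM in rich and 67.8, 59.5 and 38.7 in zero barcodes of DA-2, LEW-1 and LEW-2 (1.62 ± 0.329, edgeR adjusted p = 0.00015). Nr1i3, also a member of the pericentral list, was its only called gene of 13 (DESeq2 0), at 220, 96.9 and 93.5 CPM against 66.0, 34.7 and 31.1 (1.52 ± 0.347).

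Immediate-early and stress genes had 4 of 18 higher and 0 lower (median 0.67; DESeq2 called 1), beside the same 1.13% and 0.415% over all genes, as for the lists that follow. Gadd45a and Gadd45g, which code for stress sensors of growth arrest, Ier3, an early response gene, and Btg2, an antiproliferative early gene, were the called members. Gadd45g stood at 715, 291 and 1149 CPM in rich barcodes of DA-2, LEW-1 and LEW-2 and at 316, 121 and 296 in zero barcodes (1.35 ± 0.317). Nuclei of the same filter had 693 to 3008 CPM of Gadd45g, against 158 and 330 in immune-enriched hepatocytes. Of transporters and receptors 1 of 22 was higher, the hepatocyte growth factor receptor Met (DESeq2 called 0). Met stood at 2.96 and 2.56 CPM in zero barcodes of LEW-1 and LEW-2, under the low-count limit, and so entered the test through rich sums. Slco1b2, an organic anion uptake transporter, stood at 1233, 969 and 1096 CPM against 504, 494 and 395, without passing the test (adjusted p = 0.051, edgeR). Unannotated transcripts, a list set by symbol alone, had 16 of 436 higher, AC134224.3 among them, and 1 lower, LOC689064 (17 in all, DESeq2 7). Of the higher ones, AABR07072562.1, AABR07060678.1, LOC108351063, AABR07004530.1, RGD1565117 and AC134224.2 were under the low-count limit in some zero sums. They entered the test through rich sums. Of 15 long non-coding RNAs listed as nuclear, 2 were found by symbol and 1, Tug1, was tested and not called. Malat1 and Neat1 are not listed under those symbols and were not analysed here.

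Gusb, Gzma and Alg3 had the most negative fitted values among the lower genes, but all 3 were at 0 UMIs in the rich sums, where the fitted fold is no bound. Among lower genes of the same direction in 3 rats and at least 50 CPM on average, the leading 10 were LOC689064, Hba-a2, Ccl5, 6 Mt- genes and AY172581.24, of mitochondrial name. The 13 Mt- genes are described without a test, since the choice used their share; their median log2 fold change was −1.84. Mt-co1, a subunit of cytochrome c oxidase, stood at 7142, 11825 and 3929 CPM in rich barcodes of DA-2, LEW-1 and LEW-2 and at 33210, 21038 and 17855 in zero barcodes. Mt-nd2, a subunit of complex I, stood at 1153, 1648 and 1216 CPM against 4413, 4162 and 3245. In both genes the lowest zero value was above the highest rich value.

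The erythroid list had 2 of 2 tested members lower, both listed as Hba-a2 (DESeq2 called 1). LOC689064 stood at 0, 0 and 6.68 CPM in rich and 68.0, 26.6 and 345 in zero barcodes of DA-2, LEW-1 and LEW-2. It was listed as unannotated by its LOC symbol alone, and what it codes for was not examined. Hba-a2 (ENSRNOG00000029886), a haemoglobin alpha chain, stood at 2.86, 0 and 20.0 against 60.7, 30.7 and 352. Haemoglobin genes are near-identical copies and their counts are uncertain. The lymphocyte list had its only tested member lower, the chemokine Ccl5, at 28.6, 96.9 and 6.68 CPM against 101, 107 and 117 (DESeq2 0). Of 12 Kupffer and myeloid markers Cd74 and Lyz2 were lower and 0 higher (DESeq2 0). Summed over the whole lists, myeloid markers gave 0.0552 to 0.0635% of UMIs in rich and 0.0572 to 0.0972% in zero barcodes, erythroid markers 0 to 0.00267% and 0.00473 to 0.0490%, lymphocyte markers 0.000668 to 0.00969% and 0.0112 to 0.0137%, and endothelial markers 0.00969 to 0.0120% and 0.0104 to 0.0167%. Mesenchymal markers gave 0.0232 to 0.0581% and 0.0204 to 0.0645%, and cholangiocyte markers 0 to 0.00267% and 0.00367 to 0.00487%. Endothelial, mesenchymal and cholangiocyte markers had 0 of 7, 0 of 4 and 0 of 2 called (edgeR; 2, 0 and 1 lower at an unadjusted p under 0.05; DESeq2 0 in each), as had 0 of 7 hepatocyte markers (3 lower at an unadjusted p under 0.05; DESeq2 0). At 0 UMIs in the rich sums of DA-2 and LEW-2 were 7 of 8 lymphocyte, 3 of 10 endothelial and at most 2 of 12 myeloid markers, while 0 of 7 hepatocyte markers were at 0 in any rich sum. No marker list of another cell type had a member called higher. Where the RNA of these markers came from, and its part in the lower genes, was not tested.

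The lists of cytoplasmic messages had no called member in the fit of 3 rats. In simulated counts that fit recovered 0 of 200 genes with a log2 change of 1, so no absence of such changes is read from this. Single genes outside these lists were lower. Examples, named after their values were seen, are Serpina4, a secreted protease inhibitor, at 332, 388 and 180 CPM in rich against 707, 503 and 424 in zero barcodes of DA-2, LEW-1 and LEW-2 (−1.27 ± 0.338), and Canx, a chaperone of the endoplasmic reticulum (−1.15 ± 0.337). Cytosolic ribosomal proteins had 0 of 84 members called (edgeR; 5 lower at an unadjusted p under 0.05; DESeq2 0), with a median of −0.43. Their summed share differed in direction between rats, by 0.389 percentage points in DA-2, the rat with most rich barcodes, −0.832 in LEW-1 and −2.97 in LEW-2 (rich minus zero; exact sign permutation p = 0.5, smallest possible 0.25). Secreted plasma proteins had 0 of 35 called (19 lower at an unadjusted p under 0.05; DESeq2 0), with a median of −0.68, and their summed share was 13.1%, 11.3% and 11.9% in rich against 15.7%, 13.6% and 14.6% in zero barcodes, lower in 3 of 3 rats (exact sign permutation p = 0.25, the smallest possible). Without LEW-1 4 of 35 were lower, beside 0.937% of the 8003 genes in that fit, and against zero barcodes of the same Mt- share the median was −0.02, with 15 of 33 positive and 0 called (edgeR, 1 higher and 0 lower at an unadjusted p under 0.05). Cytosolic and metabolic enzymes had 0 of 27 called (0 at an unadjusted p under 0.05; DESeq2 0), and periportal genes 0 of 16 (4 lower at an unadjusted p under 0.05; DESeq2 0). Alb, used in the choice, gave 2.37%, 1.86% and 1.54% of UMIs in rich and 4.05%, 3.12% and 2.66% in zero barcodes.

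Since rich barcodes were poor in Mt- RNA, zero barcodes of the same rat were also drawn to the same Mt- share, a comparison added after seeing the data. The median log2 fold change of Mt- genes was then −0.10, as the matching sets it. Of 2978 genes tested 64 were higher (2.15%) and 25 lower (0.839%; 2.99% in all), and 39 of these 89 were among the 119. AC134224.3 made up 3.85%, 4.26% and 2.18% of the matched zero barcodes of DA-2, LEW-1 and LEW-2, below the rich value in each rat. Pnn, Prpf4b, Akr1c1, Pnisr, Cped1, AC134224.1 and AC134224.3 were again higher, as were 5 of 15 immediate-early and stress genes and 3 of 16 transcription factors. Of 74 ribosomal protein genes, 6 were called lower and 0 higher, with a median log2 fold change of −0.47 and 1 positive value. At an unadjusted p under 0.05 (edgeR), 59 of the 74 were lower and 0 higher. Snrnp48 and Khdc4 did not pass (adjusted p = 0.13 and 0.062, edgeR). Markers of other cell types were lower here too: 3 of 8 Kupffer and myeloid markers and the only lymphocyte marker tested, Ccl5, with 0 higher.

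The question of likeness to nuclei was put to a contrast that shares no library with TLH: hepatocyte nuclei against immune-enriched hepatocytes, where 5643 of 9682 genes tested differed (58.3%; 2985 higher, or 30.8%, and 2658 lower, or 27.5%, in nuclei). Genes higher in nuclei included 6 of 7 endothelial, 5 of 12 Kupffer and myeloid and 3 of 4 mesenchymal markers tested. Lower were 1 mesenchymal and 2 of 2 cholangiocyte markers. The limit of 2 UMIs from filter genes of other cell types was applied at median depths of 2670 to 3161 UMIs in nuclei. In immune-enriched libraries the medians were 38953 and 35251, so the limit was stricter there per UMI. Its part in these calls was not tested. Of 7479 genes tested in both contrasts, 1.16% were higher and 0.401% lower in rich TLH barcodes. Among the 1552 genes higher in nuclei, 75 were higher in rich barcodes (4.83%) and 1 lower, with a median log2 fold change of 0.39. Of these 75, 14 entered the test through rich sums as above, and 61 passed the low-count limit in 3 zero sums. Among the 2627 genes lower in nuclei, 0 were higher and 20 lower (0.761%), with a median of −0.27. Of these 20, 14 were of mitochondrial origin, so 6 of 2612 other genes were lower, and likeness to nuclei is not read from the lower genes. Genes at least 4-fold higher in nuclei had 48 of 260 higher (18.5%). Without DA-2 the 75 of 87 higher genes became 20 of 22, and without LEW-2 11 of 16. The 75 genes made up 86.2% of all genes higher in rich barcodes and 4.83% of those higher in nuclei. The 1 exception was Mrc1, a scavenger receptor of endothelial cells and macrophages, named after its values were seen.

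**Figure D5:**
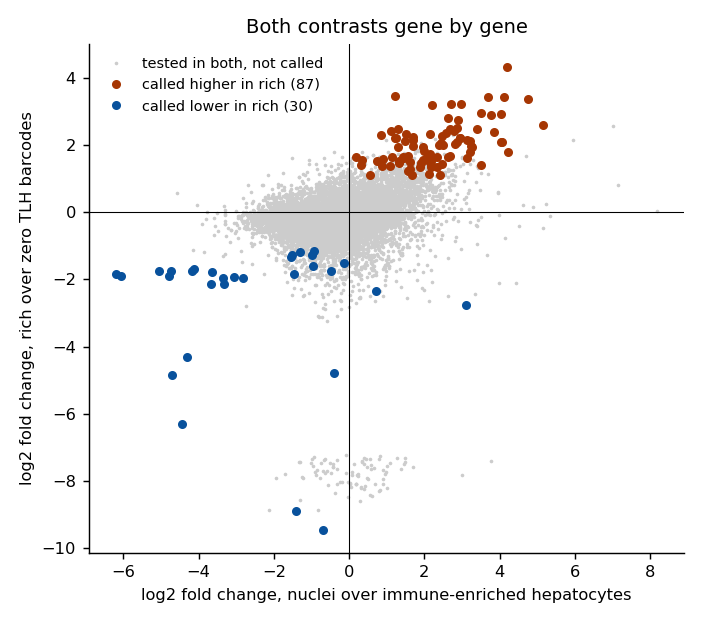
Log2 fold change of rich over zero TLH barcodes (vertical axis) against that of nuclei over immune-enriched hepatocytes (horizontal axis) for the 7479 genes tested in both, with genes called higher (87) and lower (30) in rich barcodes in colour. All 87 higher genes lie right of 0, and 28 of the 30 lower genes lie left of it; points under −7 are genes at or near 0 UMIs in the rich sums, whose fitted fold is no bound.

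All 87 genes called higher in rich barcodes had a positive log2 fold change in nuclei. Of the 30 called lower 28 had a negative one, or 14 of 16 without genes of mitochondrial origin. Across all 7479 genes the log2 fold changes of both contrasts had a Pearson r of 0.22 and a Spearman rho of 0.35, and across the 1062 genes at 100 CPM or more 0.49 and 0.20. Without transcripts of mitochondrial origin, whose share the choice used, the values were 0.22 and 0.34 over 7464 genes and 0.44 and 0.17 over 1050. These are correlations across genes, which are not independent replicates and share each library's depth. With Mt- matched zero barcodes, r was 0.50 over 2976 genes and 0.51 over the 2961 not of mitochondrial origin.

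For genes called higher in rich barcodes the direction was shared with nuclei, but the size was not. Genes higher in nuclei gave 17.8%, 16.1% and 21.0% of UMIs in rich barcodes of DA-2, LEW-1 and LEW-2 and 5.43%, 6.07% and 4.17% in zero barcodes, higher in 3 of 3 rats by a mean of 13.1 percentage points ± 3.43 (SD; exact sign permutation p = 0.25, the smallest possible). Most of this was AC134224.3. Without it the shares were 5.20%, 4.89% and 5.03% against 3.38%, 3.34% and 2.92%, a difference of 1.83 points ± 0.280 (SD, n = 3). These shares keep AC134224.3 in the totals, and with it out of the totals too the mean difference was 2.54 points. Nuclei, on which the list was chosen, had 23.0%, 20.9%, 14.0% and 18.7% without AC134224.3, and immune-enriched hepatocytes 2.97% and 2.65%. For these genes rich barcodes thus stood nearer the immune-enriched value. The list includes the markers of other cell types named above, and their part in these shares was not tested. Ribosomal protein genes gave 7.31%, 8.99% and 7.52% of UMIs in rich and 6.92%, 9.83% and 10.5% in zero barcodes. Both classes lay above the 1.72 to 3.47% of nuclei and the 4.37% and 3.81% of immune-enriched hepatocytes, and so outside the range of both references.

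Whole profiles gave the same order. Over 2441 genes, the Spearman rho of the rich sum with the nuclei was 0.54 in DA-2, 0.41 in LEW-1 and 0.50 in LEW-2, against 0.50, 0.45 and 0.41 for the zero sums, which was higher for rich barcodes in DA-2 and LEW-2 and lower in LEW-1. With the immune-enriched hepatocytes the rho of the rich sums was 0.88, 0.66 and 0.81, against 0.95, 0.93 and 0.93 for the zero sums. Rich sums hold fewer UMIs than these zero sums. Zero sums matched for Mt- share had a rho of 0.46, 0.45 and 0.38 with the nuclei in DA-2, LEW-1 and LEW-2. With the immune-enriched hepatocytes they had 0.92, 0.92 and 0.89. In DA-2 the matched sum held 352318 UMIs, beside 349468 in the rich sum. The part of depth in these values was not tested. In all 3 rats the rich profile remained closer to the immune-enriched cells than to nuclei.

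The same split was also made within the nuclei libraries, as a comparison added after seeing the data. At least 5 UMIs of the pair were found in 455 of 615 and 109 of 583 DA nuclei and in 60 of 1214 and 173 of 536 LEW nuclei. AC134224.3 made up 8.06%, 7.24%, 7.75% and 9.94% of UMIs in these nuclei and 0.521%, 1.61%, 1.77% and 3.33% in nuclei at 0 UMIs of the pair. Of 5263 genes tested 1636 were higher (31.1%) and 1512 lower (28.7%; 59.8% in all). Of the genes higher in rich TLH barcodes, 80 were tested there and 78 were higher (97.5%), 0 lower. Of 23 genes lower in rich TLH barcodes, 19 were lower in these nuclei (82.6%), or 7 of 9 without genes of mitochondrial origin. Nuclei filter barcodes at 0 UMIs of the pair had 20.5%, 16.3%, 17.6% and 17.2% of UMIs from secreted plasma proteins, against 5.55 to 8.01% in nuclei with at least 5, so barcodes passing the filter in the nuclei libraries were themselves not uniform. Median depth differed too, at 3229 to 4023 UMIs against 2324 to 2606.

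Barcodes at 1 to 4 UMIs of the pair, present in all 4 rats (186, 2300, 362 and 383), were compared with the same zero class in an added comparison. Of 8817 genes tested 517 were higher (5.86%) and 341 lower (3.87%; 9.73% in all, edgeR with rat as a block). DESeq2 called 338 genes, edgeR without DA-2 371, and edgeR without the rat block 0 (601 at an unadjusted p under 0.05). AC134224.3 stood at 4.12%, 6.30%, 8.70% and 9.85% of UMIs in DA-1, DA-2, LEW-1 and LEW-2, higher in 4 of 4 rats, with a log2 fold change of 2.09 that did not pass the test (adjusted p = 0.057). The paired difference was 5.48 percentage points ± 2.39 (SD, n = 4; exact sign permutation, two-sided p = 0.125, the smallest that 4 rats allow). With these larger sums, 65 of 85 ribosomal protein genes were lower and 0 higher (median −0.27), while the median of the 13 Mt- genes, not read as a test, was −0.12. Splicing factors had 13 of 24 higher, transcription factors 8 of 23, immediate-early and stress genes 7 of 20, and transporters 6 of 23, with 0 lower in each. Markers of other cell types were lower in the same barcodes: 5 of 12 Kupffer and myeloid, 4 of 7 endothelial, 2 of 3 lymphocyte and 1 of 6 mesenchymal markers tested, with 0 higher (edgeR). DESeq2 called 2, 0, 1 and 0 in this order. Called were 0 of 2 cholangiocyte and 0 of 2 erythroid markers (edgeR, 0 at an unadjusted p under 0.05; DESeq2 0). Summed over the whole lists, myeloid markers gave 0.0396 to 0.0620% of UMIs at 1 to 4 UMIs of the pair against 0.0572 to 0.0972% at 0, endothelial markers 0.00749 to 0.0165% against 0.0104 to 0.0197%, lymphocyte markers 0.00184 to 0.00729% against 0.0106 to 0.0137%, and mesenchymal markers 0.0183 to 0.0560% against 0.0204 to 0.0645%. The part of this RNA in the list changes was not tested. Slco1b2 stood at 751, 810, 882 and 770 CPM against 405, 504, 494 and 395 (0.86, adjusted p = 3.4e-22). Genes higher in nuclei had 373 of 1915 higher (19.5%) and 12 lower, beside 6.25% and 3.41% over the 8260 genes tested in both, and genes lower in nuclei had 2 higher and 231 of 2648 lower (8.72%). Here too, genes under the low-count limit in some zero sums could enter the test through the 1 to 4 sums, in which they had to be high. The number of such genes among those called higher was not counted. Both TLH comparisons use the same zero barcodes.

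Whether the change differed between strains could not be settled. A class by strain term called 0 of 7720 genes (0%; edgeR, 172 at an unadjusted p under 0.05), but with 1 DA rat and 2 LEW rats, 1 of them with 3 rich barcodes, this count says nothing about likeness of the strains. For barcodes at 1 to 4 UMIs, with 2 rats per strain, the term called 0 of 8817 (edgeR, 320 at an unadjusted p under 0.05).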

How the data were processed

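Of the study's libraries, 10 cell and nuclei libraries were used, and 2 spatial sections of Wistar liver were not. The authors deposited, for each library, a matrix of UMI counts per gene and barcode; the submitters' processing notes name Cell Ranger 3.1.0 and Space Ranger 1.1.0, and the study's methods name a custom rat reference, Rattus_norvegicus.custom_6.0.98. The TLH and immune-enriched matrices carry no gene names; their 32883 rows equal in number those of the feature list deposited with the nuclei, and row order was used to name them, so each gene's identity in TLH rests on that shared order. Whether introns were counted is not given in the sources used here. Deposited counts were used as they are, with no ambient RNA correction and no doublet caller. UMIs were summed per rat and class and tested with edgeR 4.0.16 (TMM, filterByExpr, robust quasi-likelihood fit, rat as a block, Benjamini-Hochberg at 0.05) in R 4.3.3; DESeq2 1.42.0 was an alternative. Fold changes are log2 with SE. A design of 8 sums became 6, because DA-1 has no rich barcode, so the same direction was asked of 3 rats. The pair, Alb and the 9 filter genes stay in library sizes and out of the adjustment. Per rat the deviations of the 1 to 4 and zero sums from their class means correlated (r 0.317, 0.673, 0.481 and 0.465 over 8829 genes), and the sums compared come from the same animal, hence the block.

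Named genes were the 10 with the largest change in each direction among called genes of one sign in all rats and at least 50 CPM on average, and in each gene list up to 4 members of highest CPM and 2 of largest called change. The pair, limits and lists were chosen with earlier results of these data known. Scripts were tested on simulated counts, where the fit of rich against zero barcodes recovered 0 of 200 genes at a log2 change of 1 and 124 at 2. P-values of the fits with rat as a block measure how the difference between classes within a rat varied over these rats, 1 library each. Those of nuclei against immune-enriched hepatocytes measure the spread between libraries, with strain in the model. Profiles were compared on log2(CPM + 10).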

Additional observations from a re-analysis of the deposited data

How the results depend on the processing

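The 119 genes called between rich and zero barcodes became 50 without the replicate block (36 higher, 14 lower; 49 shared), 31 with DESeq2 (all shared), 360 with rich barcodes at 3 or more UMIs, and 290 with classes set after thinning; the range was 17 to 195 when 1 rat was left out. Without LEW-2 17 genes were called and without DA-2 24, so the calls rest on these rats, and of 36 named called genes 1 and 8 stayed called. The higher and lower calls were 67 and 84 of 2773 genes tested with depth-matched zero barcodes, and 83 and 15 without Mt- genes. With barcodes of at most 20% Mt- they were 120 and 35 of 7661 genes tested. At 10 or more UMIs of the pair, a class of 4 and 5 barcodes, they were 2 and 111. Of the 87 genes higher in rich barcodes, the 75 also higher in nuclei were 48 at 4-fold in nuclei. With other fits they were 35 of 36 higher genes without the block and 46 of 64 with Mt- matched zero barcodes. Leaving out 1 rat, they were 11 of 16 to 96 of 120. The 858 calls at 1 to 4 UMIs were 0 without the block (edgeR, 601 at an unadjusted p under 0.05), 338 with DESeq2 and 371 to 863 leaving out 1 rat, the lowest without DA-2. The difference in genes per barcode was 11.7 with depth-matched zero barcodes and −20.0 to 13 leaving out 1 rat (6 without LEW-1, 13 without LEW-2). Cped1 was −8.86 at 10 or more UMIs, Mt-nd4 0.077 against Mt- matched barcodes and Hba-a2 (ENSRNOG00000047321) 0.13 at 3 or more UMIs. The values of Cped1 and Hba-a2 did not pass the test there (edgeR adjusted p = 0.85 and 0.98). The causes were not tested. Leaving out DA-1 equals the reported fit. No other named called gene changed direction under any alternative in which it was tested, and not every gene was tested in each. The calls of nuclei against immune-enriched hepatocytes stayed within 1.5 times the reported count. Settings with Mt- matching, without AC134224.3, and those of the added comparisons were chosen after seeing the data.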
